A study of Mus musculus with 6 samples.

Results

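Endometriosis is the growth of endometrial tissue outside the uterus, and its lesions are invaded by nerve fibres and vessels. The 8 genes described here stand on the nerve-growth and pain side of the disease: the neurotrophin genes Bdnf and Ntf3, the neurotrophin receptor genes Ntrk2, Ntrk3 and Ngfr, and the neuropeptide receptor genes Calcrl, Ramp1 and Tacr1. They were chosen by symbol from the 56884 genes of the count table, and all 8 were among the 18177 genes with enough reads to be tested. The comparison asks how these genes differed between Dnmt3a knockout (KO) and control (WT) ectopic lesions.

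RNA-seq was performed on 3 WT and 3 KO lesions, 1 library each. WT donors were 8-week-old Dnmt3a f/f females, and KO donors were 8-week-old Dnmt3a f/f:PR-Cre/+ females, in which Cre recombinase is expressed from the progesterone receptor locus and removes the floxed part of Dnmt3a only in cells that express, or have expressed, that receptor. Both groups carried the floxed allele, and the control carried no Cre. Uterine tissue was placed in the abdomen of wild-type recipients that carried estrogen pellets, and the labels date the lesions at 4 weeks. The donors received estradiol before transplantation according to the study's methods, which describe sutured fragments and an earlier dissection where the labels describe an injected suspension. Cells of the recipient, such as ingrowing vessels, immune cells and nerve fibres, carried intact Dnmt3a in both groups, so a library could mix donor and host RNA. In such bulk tissue, fewer cells of a type and less RNA per cell cannot be told apart.

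BDNF and NT-3 (the product of Ntf3) are secreted growth factors that keep neurons alive and guide their branching. BDNF signals through the receptor tyrosine kinase TrkB (Ntrk2) and NT-3 through TrkC (Ntrk3), while p75NTR (Ngfr) binds all mature neurotrophins with low affinity and, together with sortilin, binds their uncleaved pro-forms. On the neuropeptide side, CALCRL becomes the receptor for the sensory peptide CGRP when it pairs with RAMP1 and the receptor for adrenomedullin when it pairs with RAMP2 or RAMP3. Tacr1 encodes NK1, the receptor for substance P. In sensory nerves CGRP and substance P are released from the peripheral endings and act on vessels, immune cells and smooth muscle.

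Total counts ran from 45370342 to 57239184 per library, and 3 reads corresponded to 0.0526 to 0.0675 CPM, the reads scaled to library size in which levels are given below. Dnmt3a itself ranged from 43.9 to 52.7 CPM in WT and from 30.3 to 36.2 CPM in KO lesions, with every KO lesion below every WT lesion (log2 fold change -0.57, adjusted p = 0.321 in edgeR). The lesions did not hold the same tissues. The 12 skeletal muscle markers summed to 30356 and 32535 CPM in WT replicates 1 and 3 and to between 6.35 and 18.1 CPM in the other lesions. The 9 neutrophil markers not shared with another list summed to 9816 CPM in WT replicate 2 and to between 31.7 and 480 CPM elsewhere. KO replicate 3 stood apart from the other KO lesions: its 12 endothelial markers summed to 988 CPM against 516 and 361 CPM, and its 8 stroma markers not shared with another list to 11664 CPM against 4971 and 3612 CPM. Markers of endometrial epithelium were present in every lesion, their 8 unshared genes summing to 1797 to 2553 CPM in WT and 1630 to 2981 CPM in KO lesions.

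Of the 8 genes, 4 had a higher and 4 a lower mean log2 level in KO lesions, and the median log2 fold change was -0.07 beside 0.01 over all tested genes. Ngfr was the only one past the threshold that the study used, an unadjusted p under 0.05 and a log2 fold change above 1 or below -1. Over all tested genes, 3.10% passed that threshold as higher (564 genes) and 5.85% as lower (1064 genes) in KO lesions. None of the 8 passed an adjusted p of 0.05 in edgeR, where 0.00550% of all tested genes did, and 1 of the 8 (Ngfr) had an unadjusted p under 0.05, beside 14.7% of all tested genes. At that unadjusted p DESeq2 called 1 of the 8 and 20.3% of all genes, and limma voom called 6 of the 8 and 30.1% of all genes. At the adjusted p DESeq2 called 1 of the 8 and 6.14% of all genes, and limma voom called 0 of the 8 and 0.0660%. The lower genes made up 65.4% of the genes past the study's threshold, and 55.9% with upper quartile scaling, under which the median over all tested genes was 0.11 on the log2 scale.

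**Figure D1:**
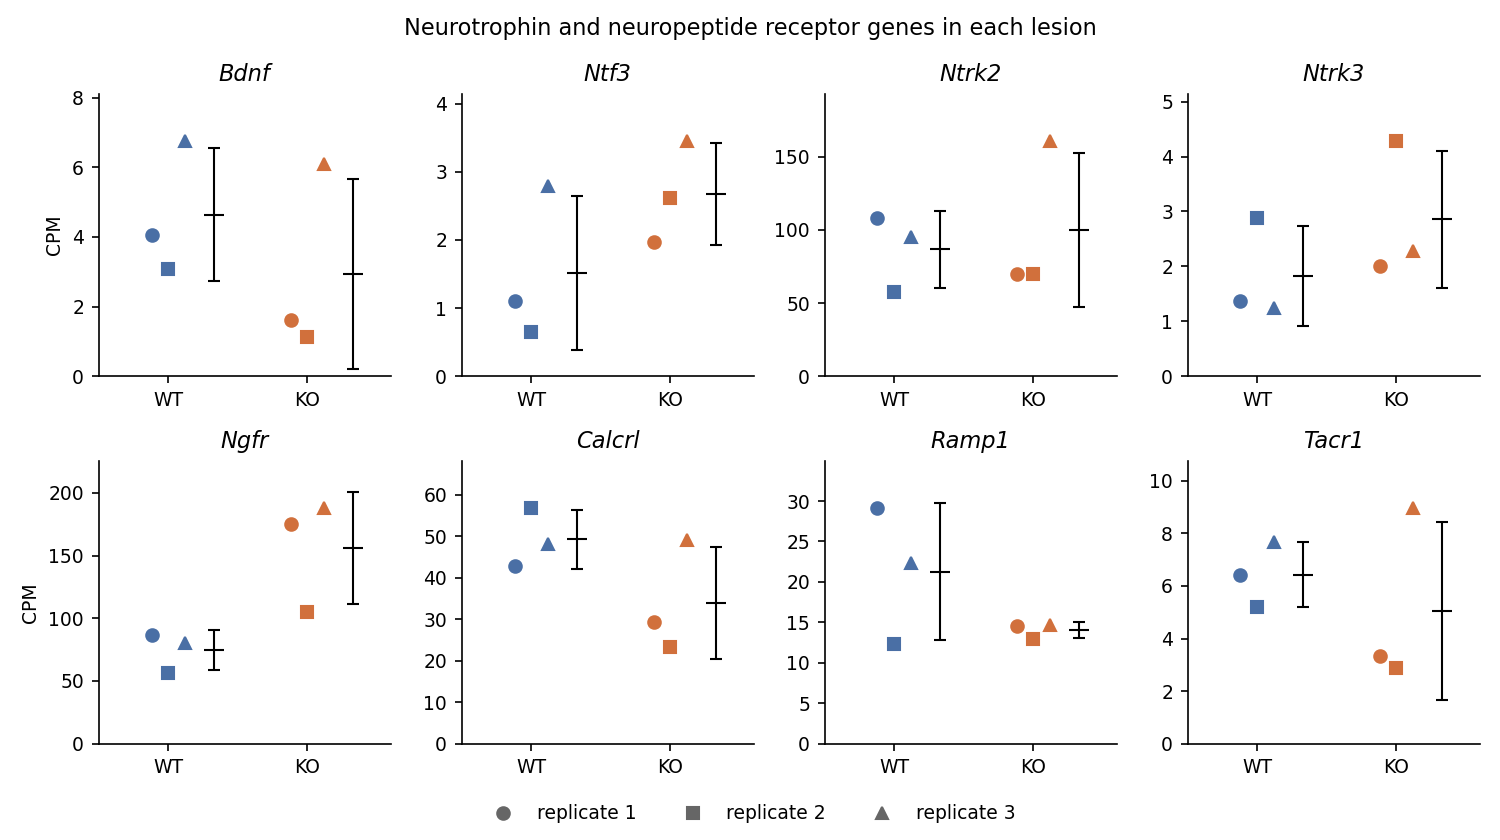
Level of each gene in CPM (vertical axes, linear, from 0) in the 3 WT (blue) and 3 KO (orange) lesions, with the replicate number as the marker shape and the mean ± SD in black. The Ngfr points of the KO lesions lie above those of the WT lesions, and KO replicate 3 is the highest KO point for 7 of the 8 genes, all but Ntrk3. For Bdnf, Calcrl and Tacr1 it alone of the KO points reaches the WT range.

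Of the 8 genes, Ngfr alone separated the groups. It lies on chromosome 11 of GRCm38 (95568818 to 95587735, minus strand; ENSMUSG00000000120.7). WT replicates 1, 2 and 3 held 86.3, 56.2 and 80.6 CPM, and KO replicates 1, 2 and 3 held 175, 105 and 188 CPM. The lowest KO lesion thus lay above the highest WT lesion, as for 10.7% of all tested genes. Mean levels of 74.4 ± 16.0 CPM for WT (SD, n = 3) and 156 ± 44.8 CPM for KO lesions (SD, n = 3) gave a 2.10-fold difference (log2 fold change 1.07 ± 0.28 SE, 95% interval 0.38 to 1.76, unadjusted p = 0.00885 and adjusted p = 0.321 in edgeR). An exact two-sided permutation test over the lesions gave p = 0.1, the smallest value that 3 lesions against 3 allow. DESeq2's Wald test gave an adjusted p of 0.0294 and made 1100 calls among all genes. The log2 fold change fell just under 1 without WT replicate 2 (0.90), KO replicate 1 (0.98) or KO replicate 3 (0.92), which ended the call at the study's threshold while the direction held. Without WT replicates 1 and 3, the lesions with skeletal muscle transcripts, it was 1.45.

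The promoter windows of Ngfr and Calcrl are shown because DNMT3A methylates cytosines in CpG pairs, and Ngfr has one of the most CpG-rich windows of the 8 genes and Calcrl one of the poorer ones. Both are RefSeq sequences of GRCm38.p6, from 250 bases before to 50 bases after the annotated start, written 5′ to 3′ on the strand of the gene, with each CpG in capitals. The Ngfr window is chr11:95587649-95587948 and the Calcrl window chr2:84425217-84425516, both on the minus strand.
Ngfr: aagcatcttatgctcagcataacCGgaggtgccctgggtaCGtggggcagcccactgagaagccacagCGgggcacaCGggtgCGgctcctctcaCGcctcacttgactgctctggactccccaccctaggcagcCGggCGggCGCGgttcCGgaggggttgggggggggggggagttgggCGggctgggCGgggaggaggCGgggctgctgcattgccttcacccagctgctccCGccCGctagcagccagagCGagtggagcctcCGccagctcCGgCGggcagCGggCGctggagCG
Calcrl: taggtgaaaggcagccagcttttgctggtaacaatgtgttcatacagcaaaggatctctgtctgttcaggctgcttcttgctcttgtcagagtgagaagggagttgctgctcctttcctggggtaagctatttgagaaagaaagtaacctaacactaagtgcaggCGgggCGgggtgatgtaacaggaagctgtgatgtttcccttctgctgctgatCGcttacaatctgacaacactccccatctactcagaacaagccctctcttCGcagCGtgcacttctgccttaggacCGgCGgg
The Ngfr window held 23 CpG pairs and 71.7% G and C, and 21.52% of all 32851 windows held as many CpG pairs or more. The Calcrl window held 7 pairs, the median of all windows, and 50.7% G and C. The letters GGGCGG, searched on both strands, occurred 4 times in the Ngfr window and once in that of Calcrl, and 35.66% of all windows held them. Windows were at hand for 7 of the 8 genes, not for Ntrk3. Ntrk2, with a window of 23 CpG pairs like that of Ngfr, had overlapping levels in the groups. No methylation was measured in these lesions.

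Of the genes whose products bind p75NTR or its pathway, Bex3 passed the study's threshold and Sort1 and Maged1 did not, and others had lower KO means. Sort1 encodes sortilin, the co-receptor that lets p75NTR bind pro-neurotrophins. It was at 173, 153 and 189 CPM in WT lesions, against 317, 322 and 250 CPM in KO replicates 1, 2 and 3, with no overlap (log2 fold change 0.79 ± 0.17 SE, unadjusted p = 0.00317, adjusted p = 0.321 in edgeR), and its difference was short of 2-fold. Bex3, which encodes a protein that binds the intracellular part of p75NTR, was at 17.4, 18.0 and 25.1 CPM in WT lesions, against 46.2, 68.8 and 31.1 CPM in KO lesions. It passed the study's threshold (log2 fold change 1.27 ± 0.33 SE, unadjusted p = 0.00781), but fell short of it without KO replicate 2 (0.94) and without both muscle-containing lesions (1.41, unadjusted p = 0.0590). Maged1, the most abundant adaptor gene and another binder of p75NTR, was at 188, 211 and 190 CPM in WT lesions, against 227, 252 and 297 CPM in KO lesions (log2 fold change 0.40 ± 0.15 SE, unadjusted p = 0.0402). Among all 15 adaptor genes, which include the Trk adaptors Frs2, Shc1 and Gab1, 1 was past the study's threshold as higher, 0 as lower and 2 had an unadjusted p under 0.05. Their median log2 fold change was -0.07. In 4 of the 15 (Bex3, Maged1, Kidins220 and Nedd4l) every KO lesion lay above every WT lesion, as for 10.7% of all tested genes. In 1, Traf6, every KO lesion lay below, as for 8.74%. Traf6, whose product is recruited to activated p75NTR, had a log2 fold change of -0.25 with all KO lesions below all WT lesions, and Ripk2 was at -0.41 and Ndn at -0.07 with overlap. The list of 9 other neurotrophins and receptors, which holds Sort1, had 8 tested genes, of which 0 passed the study's threshold and 1 had an unadjusted p under 0.05. Nradd and Sorcs2, also of that list, had log2 fold changes of -0.25 and -0.02.

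**Figure D2:**
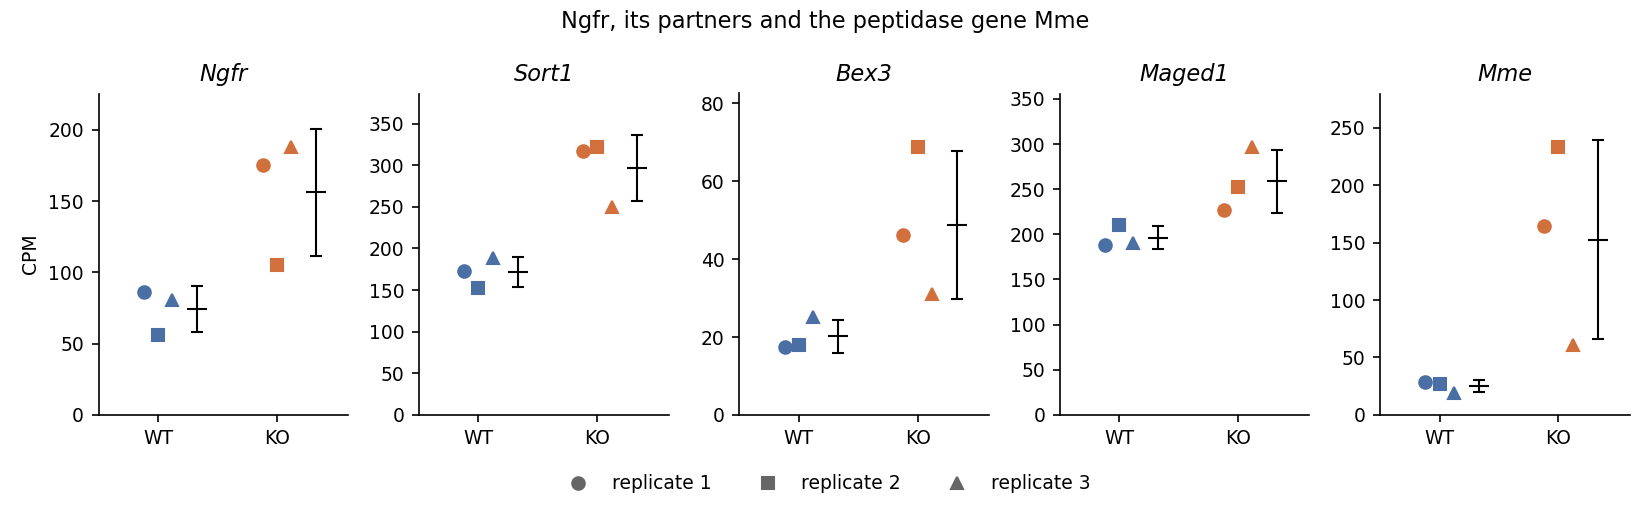
Level in CPM (vertical axes, linear, from 0) of Ngfr, of Sort1, Bex3 and Maged1, whose products bind p75NTR, and of Mme, which encodes neprilysin, in WT (blue) and KO (orange) lesions, with replicate numbers as marker shapes and mean ± SD in black. In each panel the 3 KO points lie above the 3 WT points, as for 10.7% of all tested genes. Of the 15 adaptor genes, which include Bex3 and Maged1, 4 lie so and 1 (Traf6) lies the other way.

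Cells other than nerve also make p75NTR, among them Schwann cells and some mesenchymal cells. The Schwann cell marker Sox10 was at 1.26, 0.720 and 0.641 CPM in WT lesions, against 0.175, 0.119 and 0.458 CPM in KO lesions, all KO lesions below all WT lesions. Erbb3, the neuregulin receptor gene, which epithelium also expresses, was at 65.4, 40.3 and 56.2 CPM in WT lesions, against 94.3, 99.4 and 34.7 CPM in KO lesions, with overlap, and S100b and Gfap also had higher KO means. Of the 13 Schwann cell markers 11 were tested, 1 was past the study's threshold as higher (S100b) and 1 as lower (Sox10), and the list summed to 121 to 167 CPM in WT and 110 to 255 CPM in KO lesions. The smooth muscle gene Cnn1 was higher in KO lesions, at 106, 48.5 and 80.4 CPM in WT lesions, against 257, 138 and 167 CPM in KO replicates (log2 fold change 1.26). It was the 1 gene past the study's threshold among 10 pericyte and smooth muscle markers, whose sum was 1405 to 5106 CPM in WT and 2215 to 3839.8 CPM in KO lesions. That sum includes Des, also a skeletal muscle gene, at 713, 28.1 and 362 CPM per kilobase in WT lesions, against 98.7, 51.9 and 96.4 in KO lesions. For 2 of the 10, Cnn1 and Myh11, every KO lesion lay above every WT lesion, as for 10.7% of all tested genes. The list split into 5 log2 fold changes above and 5 below 0. Of 10 endometrial stroma markers 3 (Esr1, Hoxa11 and Hand2) were past the threshold as higher, while Vim, Pdgfra, Col1a1, Col3a1 and Dcn had log2 fold changes of -0.52, -0.86, -0.46, -0.91 and -0.43. The list split into 5 genes above and 5 below 0, with a median of -0.03. The part of these cell types in the Ngfr difference was not tested.

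The Trk receptors showed no such separation. Ntrk2, on chromosome 13 of GRCm38 (58806569 to 59133970), was at 108, 57.4 and 95.3 CPM in WT lesions, against 70.0, 69.6 and 161 CPM in KO replicates 1, 2 and 3. The groups overlapped, with WT replicate 2 below every KO lesion and KO replicate 3 above every WT lesion. The log2 fold change of Ntrk2 was 0.21 ± 0.42 SE (95% interval -0.81 to 1.22, adjusted p = 0.825 in edgeR). Its sign turned without KO replicate 3 (-0.31) and without WT replicate 2 (-0.02). The counts sum all isoforms, so the full-length kinase and the truncated TrkB receptor, which lacks the kinase, were not separated. Ntrk3, on chromosome 7 (78175959 to 78738012), was at 1.37, 2.88 and 1.24 CPM in WT lesions, against 2.00, 4.29 and 2.27 CPM in KO lesions, with WT replicate 2 above 2 of the KO lesions (log2 fold change 0.64 ± 0.48 SE, 95% interval -0.54 to 1.82, adjusted p = 0.527). Without the lesions with skeletal muscle transcripts the value was -0.03.

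The balance between p75NTR and TrkB transcripts was examined after Ngfr had been seen to separate the groups. The ratio of Ngfr to Ntrk2 CPM, without correction for length, was 0.798, 0.979 and 0.846 in WT and 2.51, 1.51 and 1.17 in KO replicates 1, 2 and 3. Every KO ratio lay above every WT ratio (two-sided exact permutation of the log2 ratio, p = 0.1, the smallest possible). With Ngfr as its numerator, the ratio is not independent of the separation already seen, so this p is not a separate test. The mean log2 ratio was higher by 0.91 in KO lesions, and by 0.60 to 1.16 with each lesion left out in turn. Per kilobase of exon Ngfr exceeded Ntrk2 in every lesion, with ratios of 4.47 to 5.48 in WT and 6.53 to 14.0 in KO lesions.

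The ligand genes had few reads, at 56 to 317 per library for Bdnf and 29 to 166 for Ntf3. Bdnf, on chromosome 2 of GRCm38 (109674700 to 109727007), was at 4.06, 3.08 and 6.77 CPM in WT lesions, against 1.61, 1.11 and 6.08 CPM in KO replicates 1, 2 and 3. KO replicates 1 and 2 lay below all WT lesions and KO replicate 3 within their range (log2 fold change -0.66 ± 0.71 SE, 95% interval -2.39 to 1.07, adjusted p = 0.66 in edgeR). Without KO replicate 3 the log2 fold change was -1.76 and past the study's threshold, as for 8.66% of all genes on the lower side, with an adjusted p of 0.152, and without both muscle-containing lesions it was -0.08. In limma voom with quality weights on all 6 lesions Bdnf was at -1.69 and past the study's threshold (unadjusted p = 0.0111, adjusted p = 0.0894), as for 8.38% of all genes on the lower side, while Ngfr, at 0.83, was not past it. Bdnf shares 896 exonic bases with the antisense gene Gm45346. The library kit keeps strand, but whether the counting used it is not given, so reads of the pair may be mixed. Ntf3, on chromosome 6 (126101412 to 126166910), was at 1.11, 0.653 and 2.80 CPM in WT lesions, against 1.96, 2.62 and 3.46 CPM in KO lesions, with WT replicate 3 inside the KO range. Its log2 fold change was 0.82 ± 0.58 SE (95% interval -0.61 to 2.24, adjusted p = 0.507). The value was 1.58 and past the study's threshold without WT replicate 3, as for 2.23% of all genes on the higher side, and 2.02 without both muscle-containing lesions.

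The proteases that cut pro-neurotrophins to their mature forms include furin and, through plasmin, the plasminogen activator gene Plat. Of 9 such genes 8 were tested and 0 passed the study's threshold in either direction, with 1 (Plat) at an unadjusted p under 0.05. Plat was at 162, 198 and 181 CPM in WT lesions, against 56.3, 127 and 123 CPM in KO lesions (log2 fold change -0.82), all KO lesions below all WT lesions, which held for 8.74% of all tested genes. Mmp7, the most abundant of the list, ranged from 199.7 to 542 CPM in WT and from 212 to 452 CPM in KO lesions (log2 fold change -0.03).

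**Figure D3:**
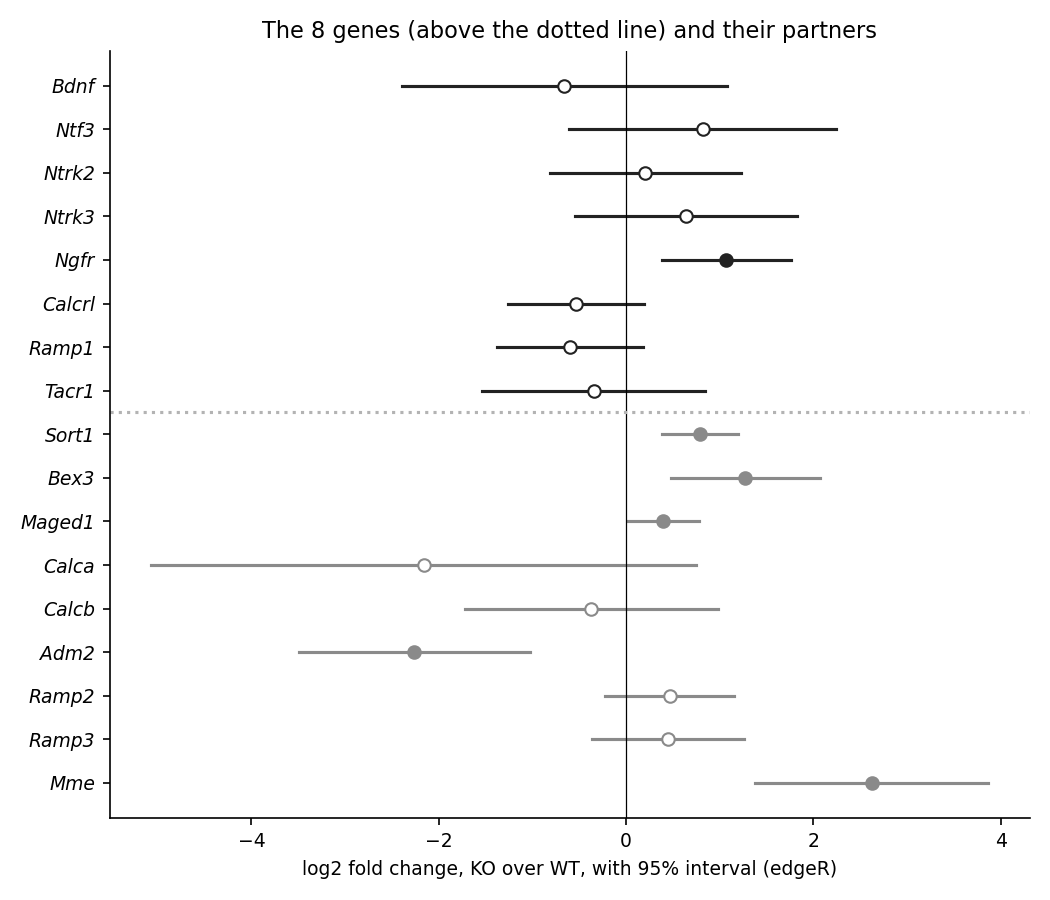
Log2 fold change of KO over WT lesions (horizontal axis) with 95% intervals from edgeR for the 8 genes, above the dotted line, and 9 partner genes below it, where filled points have an unadjusted p under 0.05. Among the 8, the interval of Ngfr alone lies clear of 0, from 0.38 to 1.76.

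Calcrl, the shared core of the CGRP and adrenomedullin receptors, lies on chromosome 2 of GRCm38 (84330626 to 84425411). It measured 42.8, 56.8 and 48.1 CPM in WT lesions, against 29.3, 23.4 and 49.2 CPM in KO replicates 1, 2 and 3. KO replicates 1 and 2 lay below every WT lesion, and KO replicate 3 within the WT range. Mean levels were 49.2 ± 7.05 CPM for WT (SD, n = 3) and 34.0 ± 13.5 CPM for KO lesions (SD, n = 3; log2 fold change -0.53 ± 0.30 SE, 95% interval -1.27 to 0.20, adjusted p = 0.415 in edgeR). Without KO replicate 3 the log2 fold change was -0.90, with an adjusted p of 0.13.

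Calcrl is a gene of blood and lymphatic endothelium, and it was set against endothelial markers after its values had been seen. The 12 endothelial markers summed to 763 to 941 CPM in WT lesions and to 516, 361 and 988 CPM in KO replicates 1, 2 and 3, the same order of KO lesions as for Calcrl. Per 100 CPM of these markers, Calcrl was at 5.06, 6.03 and 6.30 CPM in WT lesions, against 5.69, 6.48 and 4.98 CPM in KO lesions. The means were 5.80 ± 0.652 (SD, n = 3) and 5.72 ± 0.748 (SD, n = 3), and the groups overlapped throughout (exact two-sided permutation test on the log2 ratio, p = 0.9). None of the 12 markers passed the study's threshold, 11 of the 12 had a log2 fold change below 0, and their median was -0.41. The 6 lymphatic markers summed to 286 to 331 CPM in WT lesions and to 140, 151 and 311 CPM in KO lesions (median log2 fold change -0.71, 0 of 6 past the threshold). Endothelial markers were not alone in this order, since the unshared stroma markers followed it too. Over the 6 lesions, which share tissue make-up, Pearson's r of the log2 level of Calcrl with the sum of each whole list was 0.964 for endothelial, 0.984 for stroma, 0.953 for lymphatic and 0.93 for macrophage markers, given as a description.

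Ramp1, which turns CALCRL into the CGRP receptor, lies on chromosome 1 of GRCm38 (91179822 to 91225196). It was at 29.1, 12.3 and 22.4 CPM in WT lesions, against 14.5, 13.0 and 14.7 CPM in KO replicates 1, 2 and 3. The KO lesions were close to each other, WT replicates 1 and 3 were higher, and WT replicate 2 was below all KO lesions (log2 fold change -0.60 ± 0.32 SE, 95% interval -1.37 to 0.18, adjusted p = 0.397). The high WT lesions were those with skeletal muscle transcripts, and without them the log2 fold change was 0.17. Fhl1, a gene abundant in muscle, had the pattern most like that of Ramp1, at 2027, 79.8 and 755 CPM in WT lesions, against 131, 95.1 and 146 CPM in KO lesions.

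**Figure D4:**
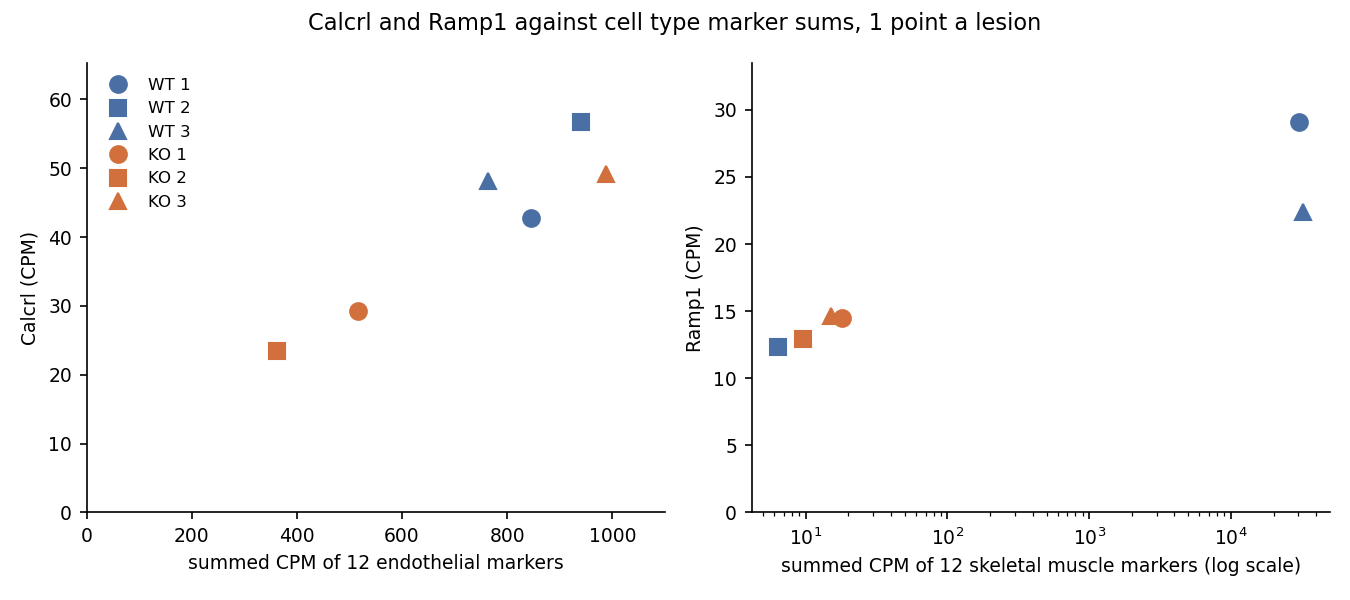
Level of Calcrl against the summed level of 12 endothelial markers (left, linear axes) and of Ramp1 against that of 12 skeletal muscle markers (right, log horizontal axis), in CPM, 1 point per lesion. Calcrl is lowest in the KO lesions with the lowest endothelial sums, 516 and 361 CPM, and Ramp1 is highest in the WT lesions with 30356 and 32535 CPM of muscle markers.

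The other RAMP genes were on the opposite side in the mean. Ramp2 was at 26.3, 32.7 and 42.2 CPM in WT lesions, against 60.9, 32.95 and 45.8 CPM in KO lesions (log2 fold change 0.46 ± 0.28 SE, adjusted p = 0.443). Ramp3 was at 55.2, 50.04 and 90.7 CPM in WT lesions, against 119.7, 60.9 and 86.4 CPM in KO lesions (log2 fold change 0.45 ± 0.33 SE, adjusted p = 0.523). Neither separated the groups. Per kilobase of exon, Ramp3 was the most abundant RAMP transcript in every lesion. The share of Ramp1 in the summed RAMP level per kilobase was 16.7%, 8.09% and 8.61% in WT and 4.36%, 7.34% and 5.97% in KO replicates 1, 2 and 3. All KO shares were below all WT shares, by less than 1 percentage point at the closest pair. The means were 11.1% ± 4.84 (SD, n = 3) and 5.89% ± 1.49 (SD, n = 3), a difference of -5.26 percentage points (two-sided exact permutation over lesions, p = 0.1, the smallest possible). Without WT replicate 1 the difference was -2.46 percentage points, and without WT replicate 3 it was -6.52. Both lesions carried muscle transcripts. The share of Ramp2 overlapped between the groups, at 13.8% to 19.7% in WT and 16.8% to 17.1% in KO lesions.

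**Figure D5:**
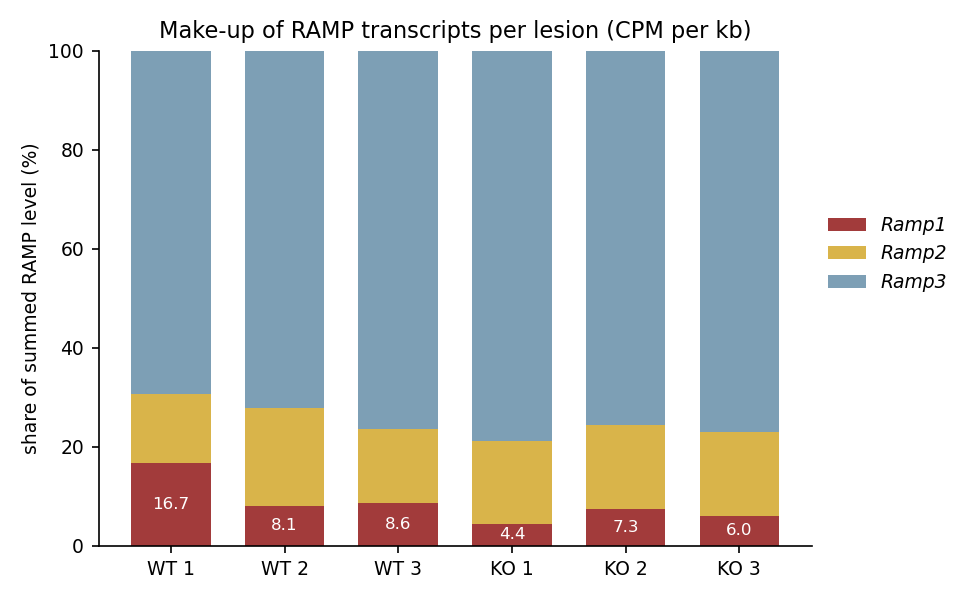
Share (%) of Ramp1, Ramp2 and Ramp3 in their summed level per kilobase of exon (vertical axis) in each lesion, as stacked bars with the Ramp1 share printed. Ramp3 makes up 69.4% to 78.9% of each bar, and the Ramp1 share runs from 8.09% to 16.7% in WT and from 4.36% to 7.34% in KO lesions.

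Transcripts for CGRP were few in the lesions themselves. Calca, which encodes CGRP alpha and is made chiefly in sensory neuron bodies, had 42, 98 and 6 reads in WT and 2, 24 and 10 reads in KO libraries (log2 fold change -2.16 ± 1.19 SE, unadjusted p = 0.119). Calcb, encoding CGRP beta, had 10 to 29 reads per library (log2 fold change -0.37). Adm, which encodes adrenomedullin, had 240 to 694 reads per library, at 10.6, 15.6 and 11.2 CPM in WT lesions, against 5.65, 4.77 and 11.5 CPM in KO lesions (log2 fold change -0.77 ± 0.39 SE, unadjusted p = 0.0930, adjusted p = 0.38). Adm2, another CALCRL ligand, was at 1.24, 0.720 and 1.84 CPM in WT lesions, against 0.175, 0.238 and 0.375 CPM in KO lesions, with no overlap (log2 fold change -2.26 ± 0.50 SE, unadjusted p = 0.00411, adjusted p = 0.321). Without both muscle-containing lesions its log2 fold change was -1.46 (unadjusted p = 0.109). It was the 1 gene past the study's threshold among 9 tested genes of the CGRP and adrenomedullin list, where 0 were past it as higher and 2 had a log2 fold change above 0 (median -0.21).

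Tacr1, the substance P receptor gene, lies on chromosome 6 of GRCm38 (82402334 to 82560104). It was at 6.40, 5.20 and 7.67 CPM in WT lesions, against 3.33, 2.86 and 8.96 CPM in KO replicates 1, 2 and 3. As with Bdnf and Calcrl, KO replicates 1 and 2 lay below all WT lesions, but KO replicate 3 had the highest level of all (log2 fold change -0.35 ± 0.49 SE, 95% interval -1.53 to 0.84, adjusted p = 0.738 in edgeR). Without KO replicate 3 the log2 fold change was -1.05 and past the study's threshold, as for 8.66% of all genes on the lower side, with an adjusted p of 0.148. Tac1, which encodes substance P, had 23, 4 and 2 reads in WT and 0, 38 and 8 reads in KO libraries and was not tested. The tachykinin list had 7 genes, of which 2, both peptidases, had enough reads.

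Mme, 1 of the 2 tested genes of that list, passed the study's threshold as higher. It encodes neprilysin, which cuts substance P and other small peptides and is also used as a marker of endometrial stroma in human tissue. Mme was at 28.9, 26.6 and 19.0 CPM in WT lesions, against 164, 233 and 60.6 CPM in KO replicates 1, 2 and 3 (log2 fold change 2.62 ± 0.51 SE, unadjusted p = 0.00208, adjusted p = 0.321 in edgeR). KO replicates 1 and 2, with the lower Tacr1 levels, had the higher Mme levels. Without both muscle-containing lesions the log2 fold change of Mme was 2.49 (unadjusted p = 0.0565). Ece1, the other peptidase of the list, was at 355 to 467 CPM in WT and 339.8 to 457 CPM in KO lesions (log2 fold change -0.02).

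Compared per kilobase of exon over all 6 lesions, Ngfr had the highest level of the 8 genes, with a mean of 33.4 CPM per kilobase and a range of 16.3 to 54.5. Calcrl (4.79 to 11.6), Ramp1 (4.07 to 9.64) and Ntrk2 (2.97 to 8.35 CPM per kilobase) followed with overlapping ranges. Ntf3 (0.381 to 2.02), Tacr1 (0.441 to 1.38) and Bdnf (0.179 to 1.09 CPM per kilobase) formed a lower set and also overlapped. Ntrk3 was lowest, at 0.0411 to 0.142 CPM per kilobase, below the other 7 genes in every lesion. The exon unions of Ntrk2 and Ntrk3 are long, 19.292 and 30.17 kb, because they merge isoforms, which lowers the value per kilobase.

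The axon guidance list, cues that attract or repel growing fibres, had 3 of 16 tested genes past the study's threshold as higher in KO lesions and 0 as lower, with 5 at an unadjusted p under 0.05 and a median log2 fold change of 0.10. Ntn1, the gene of netrin-1, was at 129, 27.3 and 77.6 CPM in WT lesions, against 437, 364 and 148 CPM in KO replicates 1, 2 and 3 (log2 fold change 2.02 ± 0.66 SE, unadjusted p = 0.022). Sema3e, whose product signals through plexin-D1, was at 5.38, 1.67 and 3.14 CPM in WT lesions, against 16.6, 20.4 and 7.50 CPM in KO lesions (log2 fold change 2.13). Sema3a, a repellent of sensory axons, was at 32.0, 12.5 and 20.6 CPM in WT lesions, against 66.3, 50.02 and 34.3 CPM in KO lesions (log2 fold change 1.21). These 3 genes had adjusted p-values of 0.321 to 0.328 in edgeR, and in each the lowest KO lesion lay above the highest WT lesion. With each lesion left out in turn, Sema3e kept the study's call in 6 of 6 fits, Ntn1 in 3 (not without WT replicate 3, KO replicate 1 or KO replicate 2, with unadjusted p from 0.0546 to 0.0665) and Sema3a in 2 (not without those or WT replicate 2, at log2 fold changes of 0.94 to 1.22).

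Of the GDNF family, which acts on other sensory and autonomic fibres, 8 of 9 genes were tested, with 1 past the study's threshold as higher and 0 as lower. That gene, Gfra4, encodes the receptor of persephin and was at 6.49, 2.63 and 2.86 CPM in WT lesions, against 13.8, 11.998 and 7.42 CPM in KO lesions (log2 fold change 1.47 ± 0.45 SE, unadjusted p = 0.0163), a call lost without WT replicate 3 (unadjusted p = 0.0563) or KO replicate 1 (unadjusted p = 0.0553). Ret, the shared signalling receptor and most abundant of the list, was at 24.1 to 35.9 CPM in WT and 17.1 to 52.0 CPM in KO lesions (log2 fold change 0.37).

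Transcripts of nerve fibres were sparse. Of 18 nerve fibre and sensory neuron markers, 11 stayed under 1 CPM in all lesions and 9 were tested, with 0 past the study's threshold as higher and 1 (Avil) as lower. Their sum was 17.1 to 39.8 CPM in WT and 9.02 to 17.9 CPM in KO lesions, with Uchl1 the most abundant. Stmn2, which encodes a growth cone protein, was at 6.28, 8.42 and 5.89 CPM in WT lesions, against 3.05, 2.34 and 5.02 CPM in KO lesions, all KO lesions below all WT lesions (log2 fold change -0.98, unadjusted p = 0.0298, adjusted p = 0.328). The sensory channel gene Scn10a had 4 reads in 1 lesion and 0 in the others. The sympathetic list had 3 of 8 genes tested and 1 past the threshold as higher, Hand2, which is also a stroma gene. All 3 had a log2 fold change above 0. In 2 of them every KO lesion lay above every WT lesion, as for 10.7% of all tested genes. The 7 sympathetic markers not shared with another list summed to 7.43 to 13.3 CPM in WT lesions, against 5.89, 41.4 and 25.2 CPM in KO replicates 1, 2 and 3.

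The genes most like each of the 8 over the 6 lesions, by Pearson's r of log2 CPM among genes with a mean of at least 5 CPM, are given as a description. Ngfr was followed most closely by Parva (r = 0.981) and Gm11808 (r = 0.98). For Calcrl they were the fibrillar collagen gene Col3a1 (r = 0.999) and Layn (r = 0.997), and for Ramp1 Fhl1 and Klc2 (both r = 0.999). Bdnf was closest to Pcdhb17 (r = 0.997) and to the lymphatic chemokine gene Ccl21a (r = 0.988), and Tacr1 to Pcdhb17 (r = 0.993) and Tpbg (r = 0.992), so both shared a nearest gene. Ntf3 was closest to Snapc5 and Zfp326 (r = 0.98 and 0.976), Ntrk2 to Stau1 and Lias (r = 0.99 and 0.984) and Ntrk3 to Decr2 and Tecpr2 (r = 0.997 and 0.992). Each gene was picked as the highest or second of 12047 or 12048 candidates, over 6 points that share library depth and tissue make-up.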

How the data were processed

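RNA from 3 WT and 3 KO lesions was sequenced after TruSeq Stranded mRNA library preparation. The authors deposited whole-number counts, 1 per gene and library, with no normalization. The study's methods name trimming, mapping to GRCm38 and counting on Galaxy, while the submitters' processing notes list GRCm39, Trimmomatic, featureCounts and DESeq2. The strand setting of the counting is not given in the sources used here. Symbols, coordinates and exon lengths were taken from GENCODE M21 (GRCm38). Of 56884 identifiers 51948 matched without their version and 35 with it, so these models may differ from those counted. Identifiers without a match held 3.04% to 3.56% of the counts.

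Differential expression used edgeR 4.0.16 under R 4.3.3 (filterByExpr, TMM scaling, quasi-likelihood test, genotype as the only term), and Benjamini-Hochberg adjustment covered all 18177 tested genes. Standard errors follow from the F statistic as log2 fold change over its root. CPM use TMM factors without a prior count, and r uses log2 CPM with a prior count of 2. Alternatives were other scalings and filters, DESeq2 1.42.0, a replicate block, limma 3.58.1 voom with quality weights, and each lesion left out. The fit without both muscle-containing lesions and the Ngfr to Ntrk2 (in CPM and per kilobase) and Calcrl to endothelial ratios were added after the data had been seen. Each lesion is treated as 1 replicate: p-values measure the spread between these lesions. Counts carry no molecular identifiers.

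The members and lists were chosen with earlier results of these data known. Beside the 8 genes and Dnmt3a, the text names from each partner list up to 4 genes per direction past the study's threshold, the most abundant gene, the 2 genes most like each member, and always Ramp2, Ramp3, Calca, Calcb and Tac1. Some genes of the lists are not reported here. Adm, Plat, Stmn2, Traf6, Ripk2, Nradd, Ndn, Sorcs2, Scn10a, Vipr1, Gal, Calcr and single cell type markers that this does not cover were picked after their values were seen. In simulated data of the KO against WT comparison with 18177 genes, the test recovered 0% of 200 genes changed by 1 on the log2 scale at an adjusted p under 0.05 (42.5% at the study's threshold), and 63.5% of 200 genes changed by 3, with 10 false calls.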

Additional observations from a re-analysis of the deposited data

How the results depend on the processing

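Of 104 values of the 8 genes under 13 alternative settings, 100 kept their direction and their side of the adjusted threshold, 3 turned sign and 1, Ngfr with DESeq2 (log2 fold change 1.06), gained an adjusted call. Ngfr stayed between 0.83 (limma voom) and 1.29, past the study's threshold in 9 of 13 alternatives (not with limma voom or without WT replicate 2, KO replicate 1 or KO replicate 3), and its adjusted p ran from 0.0294 to 0.668. At that threshold Bdnf gained a call with limma voom and without KO replicate 3, Ntf3 without WT replicate 3 and Tacr1 without KO replicate 3. Ntrk2 turned with limma voom (-0.34) and ran from -0.31 to 0.42 with each lesion left out. Without WT replicates 1 and 3, a choice made after seeing the data that leaves 1 WT lesion and assumes that it varies like the KO lesions, Ntrk3 was at -0.035, Ramp1 at 0.17, Mmp7 at 0.17 and Ece1 at 0.14, with 2 of the 8 genes (Ngfr and Ntf3) past the study's threshold and 1625 genes lower. Ngfr (1.45) and Ntf3 (2.02) were higher in KO lesions in that fit, so the count of lower genes is no background for them. With 1 WT lesion left, no conclusion is drawn from either count. With each lesion left out, 0 to 2 of the 8 were past the study's threshold. The number was 0 without WT replicate 2 or KO replicate 1, and 2 without WT replicate 3 or KO replicate 3. The same refits gave 280 to 1021 genes higher and 551 to 1650 lower, and without WT replicate 2 adjusted calls went from 1 to 398. Other counts were 855 higher with limma voom and 1652 lower without a filter. Adjusted calls were 1100 with DESeq2 and 12 with limma voom.

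Partner genes turned sign as follows. With upper quartile scaling Mmp7 and Ece1 were both at 0.073. With limma voom Calcb at 0.12 and Mmp7 at 0.13. With each lesion left out, Calcb ran from -0.65 to 0.29, Mmp7 from -0.30 to 0.43, Ece1 from -0.13 to 0.079 and Npy1r from -0.88 to 0.036. The deviations of same-numbered lesions from their group means correlated at 0.03, -0.15 and -0.20, and no WT lesion correlated best with its own number, so the numbers are not taken as pairs. A replicate block gave Ngfr 1.05 and Mmp7 0.044, with 372 genes higher and 573 lower. The causes were not tested. At this depth Calca, Calcb and Tac1, with 0 to 98 reads per library, limit what can be read from them.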

Other observations

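Other neuropeptides and receptors were mostly near the detection limit. Of 17 genes 8 were tested, none passed the study's threshold or an unadjusted p under 0.05 in edgeR, and Vip and Galr1 had no reads in any library. Npy1r, the most abundant of them, was at 6.24 to 11.4 CPM in WT and 4.39 to 13.5 CPM in KO lesions. The following were picked after their values were seen. Vipr1 was at 17.7 CPM in KO replicate 2 and between 1.58 and 2.60 CPM in the other 5 lesions. S100b was at 88.3 CPM in KO replicate 2 and between 0.544 and 3.42 CPM elsewhere, so its higher group mean rests on that lesion. Gal was at 0.540 CPM in WT replicate 2 and between 4.00 and 13.0 CPM elsewhere. Calcr, the calcitonin receptor gene, had 8, 6 and 6 reads in WT and 0 in each KO library and was not tested.

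The remaining marker lists were as follows. Macrophage markers summed to 1611 to 4241 CPM in WT and 685 to 1635 CPM in KO lesions, with 1 of 10 past the study's threshold as lower. Mast cell markers summed to 54.2 to 569 CPM in WT and 37.3 to 168 CPM in KO lesions, with 2 of 7 tested genes past it as lower. Adipocyte markers summed to 4264 CPM in KO replicate 3 and to 502 and 898 CPM in the other KO lesions, beside 939 to 2682 CPM in WT lesions. Mesothelial markers summed to 574 to 793 CPM in WT and 419 to 827 CPM in KO lesions.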
